A study of Arabidopsis thaliana with 6 samples.

Results

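The glutathione S-transferase (GST) family of Arabidopsis thaliana was followed in whole leaves of wild-type Col-0 plants grown at 100 ppm CO2 (low CO2) or at 380 ppm CO2 (normal CO2). Its members were taken by locus from a fixed list of 45 genes of the phi (GSTF), tau (GSTU), zeta (GSTZ), theta (GSTT), lambda (GSTL) and dehydroascorbate reductase (DHAR) classes. The table of 26402 genes held 42 of them, and GSTF8 (AT2G47730), GSTU2 (AT2G29480) and GSTU13 (AT1G27130) were not analysed here. The labels give 3 samples per CO2 level, all from leaves of plants 4 weeks old that had grown in soil at 21 °C and 70% relative humidity with 16 h of light and 8 h of dark. The deposited table has 1 RPKM column per CO2 level (reads per kilobase of coding sequence, scaled to the depth of the column), so no difference has a replicate check and no test was made. The family was proposed with results of these data in view, and the counts below describe both columns and are no evidence of a CO2 effect.

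GSTs join the tripeptide glutathione to reactive or toxic compounds, and plants use the conjugates both for detoxification and as steps in making sulfur-containing defence compounds. Phi and tau enzymes are the large plant classes, and many of their genes are switched on by pathogens, salicylic acid, jasmonate precursors and herbicides. Lambda enzymes and DHARs carry a catalytic cysteine in place of the usual serine and act as reductases. DHARs return dehydroascorbate to ascorbate with glutathione as the electron donor.

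The depth recovered from the values was 21887516 reads at low CO2 and 25429325 at normal CO2. Leaf markers were abundant in both columns, with the Rubisco small subunit gene RBCS1A at 24998.5 RPKM at low CO2 and 10462.5 RPKM at normal CO2 and Rubisco activase (RCA) at 7209.7 RPKM at low CO2 and 6572.4 RPKM at normal CO2. CAB1 stood at 14247.2 RPKM at low CO2 and 6713.7 RPKM at normal CO2, and the carbonic anhydrase gene CA1 at 2271.7 RPKM at low CO2 and 264 RPKM at normal CO2. The guard cell markers FAMA, MYB60 and KAT1 lay between 20.2 and 52.5 RPKM at low CO2 and between 19.1 and 31.5 RPKM at normal CO2. All 3 root markers (CASP1, COBL9 and EXPA7) and both seed markers (CRA1 and OLEO1) were listed at 0 in both columns. Of 3 flower and pollen markers, the pollen gene VGD1 had 22 reads at low CO2 and 346 at normal CO2, the floral gene AG had 13 at low CO2 and 37 at normal CO2, and AP3 had 1 at low CO2 and 2 at normal CO2. The part of these marker differences in the results below was not tested. In whole leaves, fewer cells of a type and less RNA per cell cannot be told apart.

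GST transcripts were mostly lower at low CO2, and the members past 2-fold lower were 9 tau genes, 4 phi genes, 1 lambda gene and 1 DHAR gene. Summed over the 42 genes, the family stood at 3942.9 RPKM at low CO2 and 6710.8 RPKM at normal CO2, a ratio of 0.588. Differences are given as log2((low CO2 RPKM + 1)/(normal CO2 RPKM + 1)), a scale that understates the difference of low genes, and fold values and ratios are of the plain RPKM. The genes counted are those with a mean of at least 1 RPKM, 35 of the 42. Of these, 15 (42.9%) were at least 2-fold lower at low CO2, where 11.1% of all 16563 counted genes were, and 1 (2.86%) was at least 2-fold higher, where 6.07% of all were. The other 19 lay within 2-fold, as did 82.9% of all. The whole counting interval of the ratio, which covers counting error only, lay beyond 2-fold for 14 lower members and for 0 higher ones, where it did so for 9.52% and 5.05% of the 16095 counted genes with whole reads. The median difference of the counted members was -0.74, that of all counted genes -0.06. All told, 28 of the 35 lay below 0 and 7 above it.

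**Figure D1:**
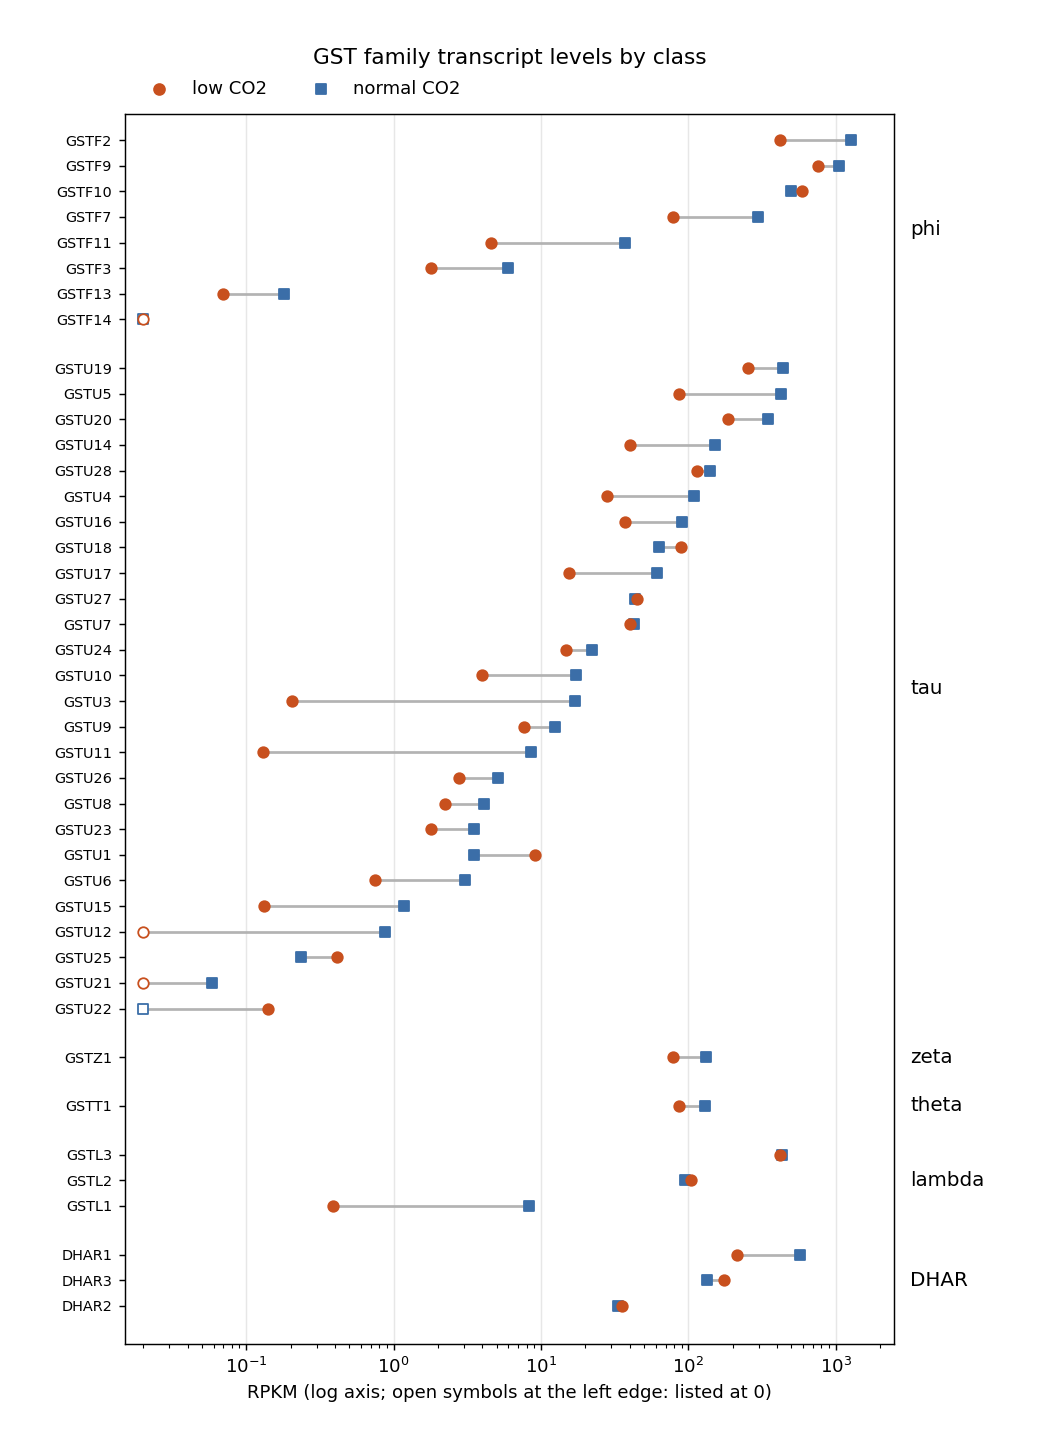
RPKM (log axis) of the 42 analysed GST genes at low CO2 (circles) and normal CO2 (squares), grouped by class and ordered by the level at normal CO2. Most circles lie left of their squares. Among genes above 0 in both columns the widest gaps are at GSTU3, GSTU11 and GSTL1. GSTF10, GSTU1, GSTU18, GSTU22, GSTU25, GSTU27, GSTL2, DHAR2 and DHAR3 have the circle on the right. Open symbols at the left edge stand for values listed at 0.

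The phi class held the 2 most abundant members of the family in each column. Of its 6 counted genes 4 were past 2-fold lower, as were 11.1% of all counted genes. GSTF2 (AT4G02520), whose protein binds indole compounds such as the phytoalexin camalexin, was the most abundant member at normal CO2. It stood at 419 RPKM at low CO2 and 1268.3 RPKM at normal CO2, 3.02-fold lower with a 95% counting interval of 2.94 to 3.11. That interval is the exact binomial interval of the reads behind both values, as are all those that follow in parentheses, and it covers counting error only. Among all counted genes GSTF2 ranked 346 by level at low CO2 and 88 at normal CO2. GSTF7 (AT1G02920), a copy of the camalexin gene GSTF6 next to it in the genome, was at 78.8 RPKM at low CO2 and 299 RPKM at normal CO2, 3.80-fold lower (3.56 to 4.06).

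GSTF11 (AT3G03190), assigned to the glutathione step of aliphatic glucosinolate synthesis, was at 4.55 RPKM at low CO2 and 37.1 RPKM at normal CO2, 8.15-fold lower (6.29 to 10.7). It had the largest difference among the phi members, and GSTF12, a phi gene outside the list of members, was 20.5-fold lower. GSTF3 (AT2G02930) had 1.80 RPKM at low CO2 and 5.94 RPKM at normal CO2, 3.31-fold lower (2.11 to 5.36) on the basis of 25 reads at low CO2 and 96 at normal CO2. Its coding sequence is 94.5% identical to that of GSTF2, and GSTF7 and GSTF6 are 94.3% identical, so reads of these pairs can be split by the authors' counting and the single values of GSTF2, GSTF3, GSTF6 and GSTF7 are uncertain.

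The other abundant phi genes, a pair of neighbours, lay within 2-fold. GSTF9 (AT2G30860), an enzyme with peroxidase activity, was at 758 RPKM at low CO2 and 1049.2 RPKM at normal CO2, a ratio of 0.723 (0.705 to 0.740). GSTF10 (AT2G30870), whose protein binds the receptor kinase BAK1, was at 587 RPKM at low CO2 and 498 RPKM at normal CO2, a ratio of 1.18 (1.14 to 1.21). From the highest level down, the analysed members were led by GSTF9, GSTF10 and GSTF2 at low CO2. At normal CO2 they were led by GSTF2, GSTF9 and DHAR1 (AT1G19570). GSTF6, outside the list of members, was at 168 RPKM at low CO2. At normal CO2 it was at 1100.3 RPKM, between GSTF2 and GSTF9. GSTF13 (AT3G62760) had 1 read at low CO2 and 3 at normal CO2, and GSTF14 (AT1G49860) was listed at 0 in both columns.

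Tau genes, the class with the most counted genes, spread over the widest range of differences, and a range can widen with the number of genes. Past 2-fold, 9 of the 21 counted genes were lower at low CO2 and 1 was higher, which left 11 inside. Of all counted genes 11.1% were past 2-fold lower and 6.07% past 2-fold higher. The tau differences ran from -3.90 to 1.16 around a median of -0.79. GSTU5 (AT2G29450) was the most abundant of the lower ones, at 86.4 RPKM at low CO2 and 425 RPKM at normal CO2, 4.91-fold lower (4.63 to 5.22). GSTU14 (AT1G27140, 39.9 RPKM at low CO2 and 152 at normal CO2) was 3.80-fold lower (3.48 to 4.14). GSTU4 (AT2G29460) stood at 27.9 RPKM at low CO2 and 109 RPKM at normal CO2, 3.91-fold lower (3.51 to 4.36). GSTU17 (AT1G10370), known as ERD9 from its early response to dehydration, was 3.91-fold lower (3.39 to 4.52), at 15.6 RPKM at low CO2 and 60.8 RPKM at normal CO2.

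The tau genes with the largest differences were close to silent at low CO2. GSTU3 (AT2G29470) had 3 reads at low CO2 (0.203 RPKM) and 291 at normal CO2 (17.0 RPKM), 83.5-fold lower with an interval of 28.3 to 407. It ranked 50 from the lowest difference among all counted genes. GSTU11 (AT1G69930) had 2 reads at low CO2 (0.130 RPKM) and 153 at normal CO2 (8.57 RPKM), 65.8-fold lower (17.9 to 549). GSTU12 (AT1G69920), next to GSTU11 in the genome and not counted, had no read at low CO2 and 17 at normal CO2. The counting interval of its ratio ran from 0 to 0.282, and with a floor of 3 reads set at low CO2 GSTU12 was 4.88-fold lower. In all, 5 members of the family had at least 1 RPKM at normal CO2 and less than 1 RPKM at low CO2 (GSTU3, GSTU6 (AT2G29440), GSTU11, GSTU15 (AT1G59670) and the lambda gene GSTL1 (AT5G02780)), and 0 members showed the opposite. The share of all genes that crossed 1 RPKM in either direction was not worked out, so both counts describe the members only.

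Also past 2-fold lower were GSTU10, GSTU16 and GSTU6. GSTU10 (AT1G74590) was at 4.00 RPKM at low CO2 and 17.2 RPKM at normal CO2, and GSTU16 (AT1G59700) at 37.4 RPKM at low CO2 and 90.5 RPKM at normal CO2. GSTU10 was 4.29-fold lower (3.25 to 5.74) and GSTU16 2.42-fold lower (2.20 to 2.67). GSTU6 had 11 reads at low CO2 and 52 at normal CO2, 4.07-fold lower (2.10 to 8.65). GSTU6 and GSTF3 came to lie within 2-fold with a pseudocount of 5.

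By level at low CO2 the most abundant tau genes, GSTU19, GSTU20 and GSTU28, were lower by less than 2-fold, while at normal CO2 GSTU5, 4.91-fold lower, stood above GSTU20. GSTU19 (AT1G78380) was at 255 RPKM at low CO2 and 441 RPKM at normal CO2, a ratio of 0.579 (0.556 to 0.602). GSTU20 (AT1G78370), a partner of the jasmonate-conjugating enzyme FIN219 (JAR1), was at 187 RPKM at low CO2 and 348 RPKM at normal CO2, a ratio of 0.537 (0.513 to 0.562). At a log2 difference of -0.89 GSTU20 lay just inside the 2-fold rule, and GSTU6 at -1.21 just outside it. GSTU28 (AT1G53680, 115 RPKM at low CO2 and 141 at normal CO2) had a ratio of 0.819 (0.769 to 0.871). The ratio of GSTU24 (AT1G17170), which is induced by xenobiotics and acts on the explosive TNT, was 0.665 (0.558 to 0.790), from 14.7 RPKM at low CO2 and 22.1 RPKM at normal CO2. GSTU7 (AT2G29420) was at 40.3 RPKM at low CO2 and 43.1 RPKM at normal CO2, a ratio of 0.933 (0.837 to 1.04), and GSTU27 (AT3G43800) at 44.6 RPKM at low CO2 and 43.6 RPKM at normal CO2, a ratio of 1.02 (0.921 to 1.14). Both intervals include 1. Ratios of GSTU8 (AT3G09270), GSTU9 (AT5G62480), GSTU23 (AT1G78320) and GSTU26 (AT1G17190) ranged from 0.512 to 0.615.

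GSTU1 (AT2G29490) was the member at least 2-fold higher at low CO2. It had 134 reads at low CO2 (9.11 RPKM) and 60 at normal CO2 (3.51 RPKM), 2.59-fold higher (1.90 to 3.58). The interval reaches below 2-fold, and with a pseudocount of 5 GSTU1 lay within 2-fold at 0.73. The next gene on that side, GSTU18 (AT1G10360), was within 2-fold, at 89.6 RPKM at low CO2 and 62.8 RPKM at normal CO2, a ratio of 1.43 (1.32 to 1.55). Of the tau genes not counted, GSTU15 had 2 reads at low CO2 and 21 at normal CO2, and GSTU22 (AT1G78340) had 2 at low CO2 and 0 at normal CO2. GSTU25 (AT1G17180) had 6 reads at low CO2 and 4 at normal CO2. GSTU21 (AT1G78360) was listed at 0 at low CO2 and at 0.0590 RPKM at normal CO2.

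**Figure D2:**
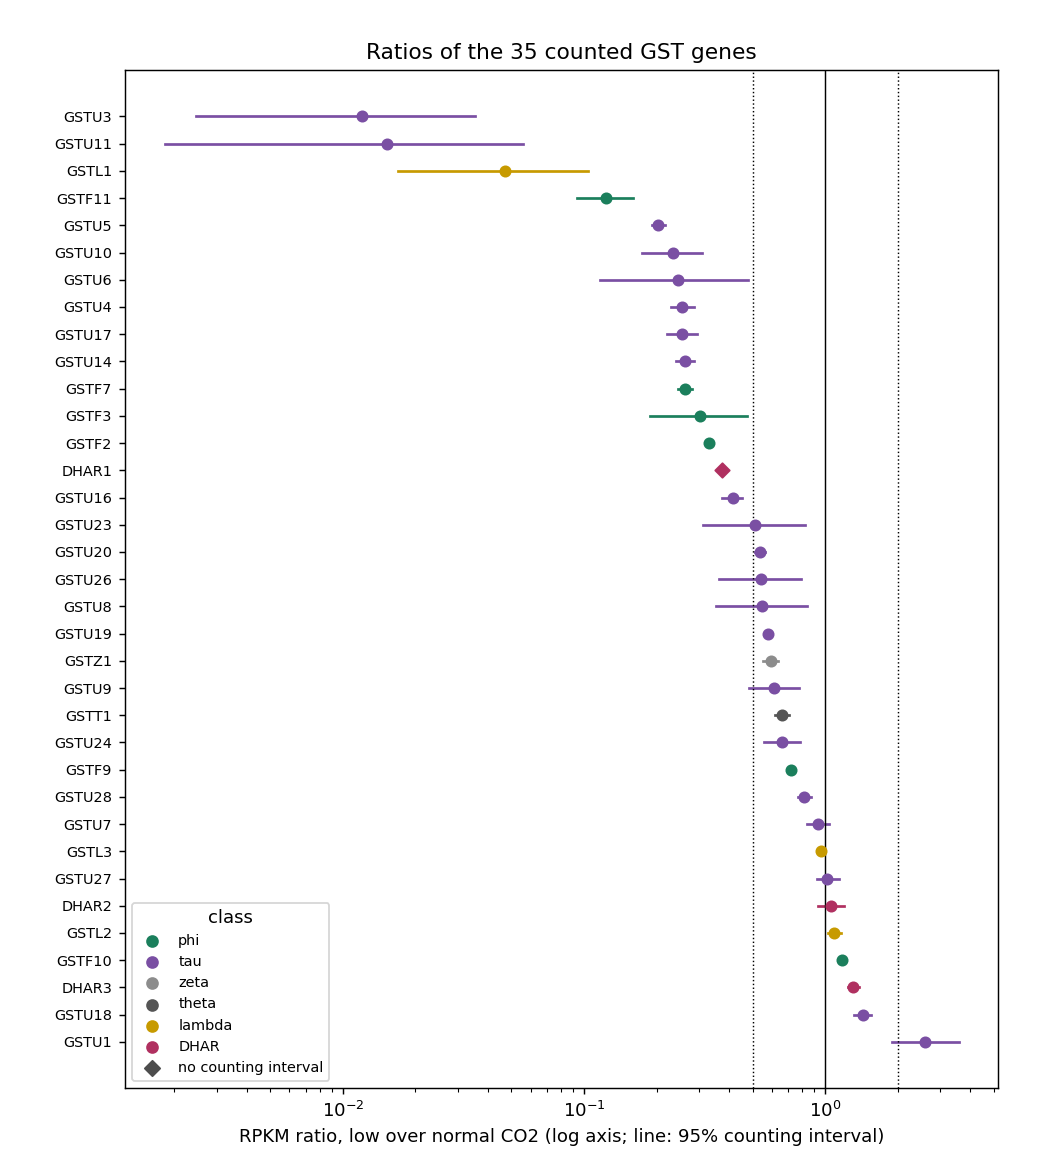
RPKM ratio of low over normal CO2 (log axis) for the 35 counted GST genes, coloured by class, with the 95% counting interval as a line and dotted lines at 2-fold either way. The leftmost genes are GSTU3 and GSTU11, whose wide intervals rest on 3 and 2 reads at low CO2, and GSTU1 is the gene past 2-fold on the right.

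The lambda class held a member that was almost silent at low CO2 and a pair of abundant ones. GSTL1 had 6 reads at low CO2 (0.386 RPKM) and 149 at normal CO2 (8.24 RPKM), 21.4-fold lower (9.59 to 59.2). GSTL3 (AT5G02790), which follows it in the genome and shares 75.6% of its coding sequence, was at 417 RPKM at low CO2 and 432 RPKM at normal CO2, a ratio of 0.964 (0.932 to 0.996). GSTL2 (AT3G55040), a more distant member, stood at 104 RPKM at low CO2 and 95.5 RPKM at normal CO2, a ratio of 1.09 (1.03 to 1.16).

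Among the dehydroascorbate reductases the gene of the cytosolic enzyme DHAR1 was the one past 2-fold. DHAR1 was at 213 RPKM at low CO2 and 572 RPKM at normal CO2, 2.68-fold lower, with no counting interval because its values gave no whole reads. DHAR2 (AT1G75270), the other cytosolic enzyme, was at 35.5 RPKM at low CO2 and 33.5 RPKM at normal CO2, a ratio of 1.06 (0.938 to 1.20). The gene of the plastid enzyme, DHAR3 (AT5G16710), was higher at low CO2 by less than 2-fold, at 175 RPKM at low CO2 and 134 RPKM at normal CO2, a ratio of 1.31 (1.24 to 1.38). DHAR1 made up 50.4% of the summed level of its class at low CO2 and 77.4% at normal CO2.

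GSTZ1 (AT2G02390), the maleylacetoacetate isomerase of tyrosine breakdown, was at 78.7 RPKM at low CO2 and 132 RPKM at normal CO2, a ratio of 0.596 (0.555 to 0.639). GSTT1 (AT5G41210), a peroxisomal enzyme, was at 86.3 RPKM at low CO2 and 130 RPKM at normal CO2, a ratio of 0.663 (0.620 to 0.708). Both genes, the zeta and theta members analysed here, lay within 2-fold.

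Set side by side, the share of counted genes at least 2-fold lower at low CO2 was 4 of 6 in phi and 9 of 21 in tau. It was 1 of 3 in lambda and 1 of 3 among the DHARs, and 11.1% over all counted genes. Medians were -1.45 for phi, -0.79 for tau, -0.05 for lambda and 0.08 for the DHARs. Summed over the members, levels followed another order. The tau sum was 983 RPKM at low CO2 and 2015 RPKM at normal CO2, a ratio of 0.488. The phi sum was 1849.8 RPKM at low CO2 and 3158.6 RPKM at normal CO2, a ratio of 0.586. With GSTF6 and GSTF12, the phi genes outside the list of members that were past 2-fold lower, the phi ratio was 0.448, below that of tau. GSTF4 and GSTF5, phi genes also outside the list, were not added. GSTF4 was at 4.41 RPKM at low CO2 and 3.69 RPKM at normal CO2, and GSTF5 at 0.416 RPKM at low CO2 and 0.614 RPKM at normal CO2. The DHAR sum, at 424 RPKM at low CO2 and 739 RPKM at normal CO2, had a ratio of 0.573, with DHAR1 as its lower member. The lambda sum was 521 RPKM at low CO2 and 536 RPKM at normal CO2, a ratio of 0.973 that came to 1.01 when the columns were scaled to the same median. GSTL3 alone made up 79.9% of that sum at low CO2 and 80.7% at normal CO2. As a share of the summed level of the analysed members, lambda genes took 13.2% at low CO2 and 7.99% at normal CO2. Phi genes, without GSTF6 and GSTF12, took 46.9% at low CO2 and 47.1% at normal CO2. No test of a difference between classes could be made.

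**Figure D3:**
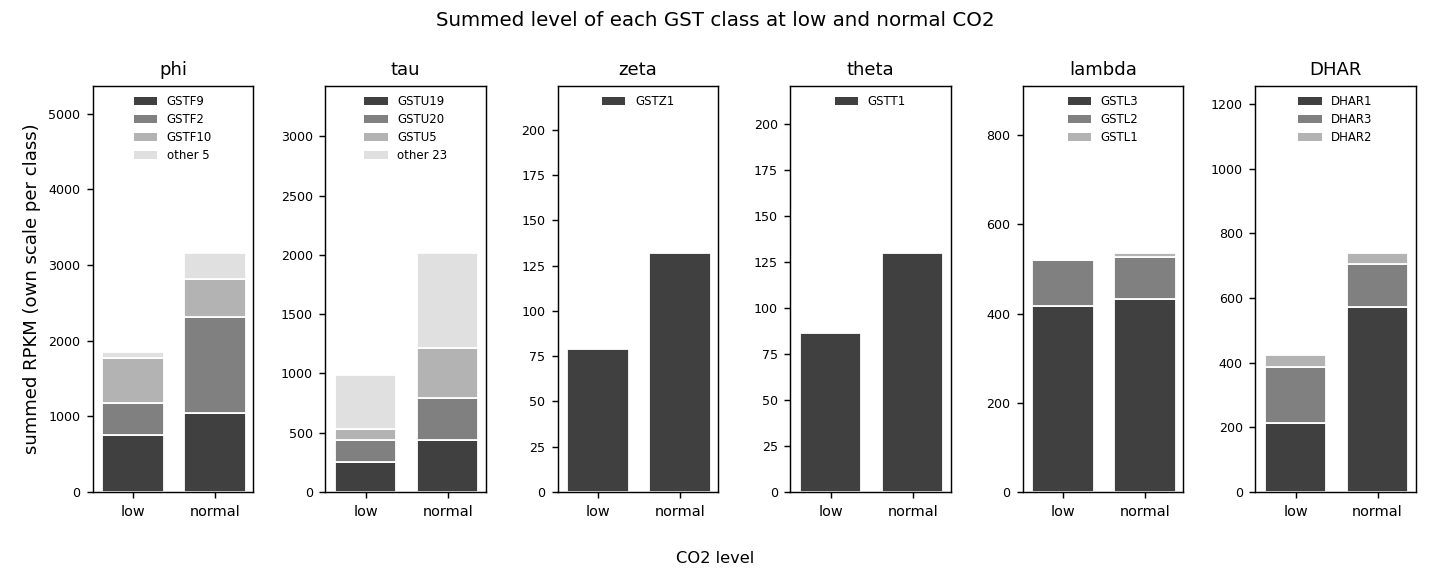
Summed RPKM of each GST class at low CO2 (left bar) and normal CO2 (right bar), each panel with its own axis from 0, split into its most abundant genes and the rest. The lambda bars are of nearly equal height (521 RPKM at low CO2 and 536 RPKM at normal CO2), whereas the tau bar at low CO2 (983 RPKM) is under that at normal CO2 (2015 RPKM) by a ratio of 0.488.

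GST genes often lie next to each other in the genome, and neighbours did not always differ alike. In the gene order of the TAIR10.1 assembly 22 of the analysed members formed 7 runs with at most 2 other protein-coding genes between members. The longest run, GSTU7, GSTU6, GSTU5, GSTU4, GSTU3 and GSTU1, held 4 members at least 2-fold lower, 1 at least 2-fold higher and 1 within 2-fold. GSTU4 and GSTU1 lie in it with 83.9% identical coding sequences, and the log2 difference was -1.93 for GSTU4 and 1.16 for GSTU1. Its summed level was 165 RPKM at low CO2 and 600 RPKM at normal CO2, a ratio of 0.274, against 819 RPKM at low CO2 and 1414.7 RPKM at normal CO2 for the other 20 tau genes, a ratio of 0.579.

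In the run of GSTU23, GSTU22, GSTU21, GSTU20 and GSTU19 all 3 counted genes lay between -0.89 and -0.69. GSTU18 and GSTU17, adjacent and 81.6% identical, had log2 differences of 0.51 (GSTU18) and -1.90 (GSTU17), and the adjacent lambda genes had -2.74 (GSTL1) and -0.05 (GSTL3). In all, 3 of the 7 runs held both a lower gene and one that was higher or within 2-fold. Of the 18 counted genes in runs 7 were past 2-fold lower, a share near that of the whole family (42.9%), where 11.1% of all counted genes were.

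**Figure D4:**
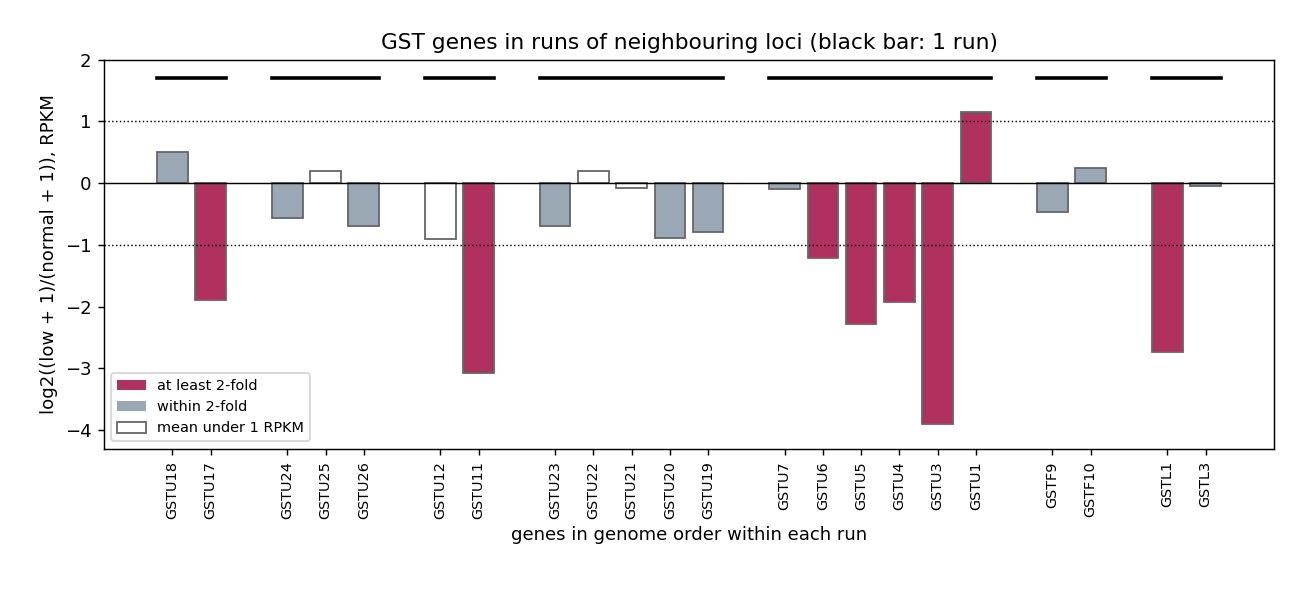
Log2 difference between low and normal CO2 for the 22 GST genes that lie in runs of neighbouring loci, in genome order within each run, with dotted lines at 2-fold. In the run from GSTU7 to GSTU1, 4 bars reach below -1 and the GSTU1 bar alone reaches above 1, and the GSTU18 and GSTU17 bars point in opposite directions.

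Of GST loci outside the list of members 10 were looked up and 8 counted. GSTF6 and GSTF12 were past 2-fold lower at low CO2 (25% of the 8, where 11.1% of all counted genes were), and the other 6 lay within 2-fold (82.9% of all). The median was -0.25. GSTF6, which makes the glutathione conjugate on the way to camalexin, was at 168 RPKM at low CO2 and 1100.3 RPKM at normal CO2, 6.54-fold lower (6.26 to 6.83). GSTF12 (TT19), the carrier that brings anthocyanins to the vacuole, was at 13.4 RPKM at low CO2 and 274 RPKM at normal CO2, 20.5-fold lower (17.7 to 23.8).

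The 4 genes that make and reduce glutathione lay within 2-fold, where 82.9% of all counted genes did. GSH1, the first enzyme of glutathione synthesis, was at 163 RPKM in both columns (ratio 0.998, interval 0.963 to 1.03), and GSH2, the next step, was at 130 RPKM at low CO2 and 71.2 RPKM at normal CO2, a ratio of 1.83 (1.75 to 1.92). The cytosolic and peroxisomal glutathione reductase gene GR1 had a ratio of 0.514 (0.492 to 0.537) and the plastid and mitochondrial GR2 of 0.977 (0.947 to 1.01). The list of these 4 genes had a median of -0.02. All 7 counted glutathione peroxidase-like genes also lay within 2-fold, with a median of -0.26, so both counts are near the share over all genes. GPX1 was at 340 RPKM at low CO2 and 261 RPKM at normal CO2, and GPX6 at 263 RPKM at low CO2 and 282 RPKM at normal CO2.

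Genes of glutathione turnover and transport, some of which handle conjugates after a GST has made them, included some past 2-fold lower, as were 11.1% of all counted genes. In that list (10 counted genes, median -0.66) there were 3 genes past 2-fold lower (30%) and 0 past 2-fold higher. Of the 10, 6 lay below 0 and 4 above it. GGP1, a peptidase that trims the glutathione conjugates of glucosinolate and camalexin synthesis, was at 200 RPKM at low CO2 and 837 RPKM at normal CO2, 4.19-fold lower (4.03 to 4.35). Of the gamma-glutamyl transpeptidases, the vacuolar GGT4, which opens glutathione conjugates for breakdown, was 3.65-fold lower (3.28 to 4.06) and the apoplastic GGT1 2.33-fold lower (2.15 to 2.51). Among the 3 vacuolar pumps for glutathione conjugates (median -1.32) ABCC3 was 2.79-fold lower (2.66 to 2.92) and ABCC2 2.56-fold lower (2.45 to 2.68), and ABCC1 had a ratio of 0.769.

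Monodehydroascorbate reductases, which share with the DHARs the task of recovering ascorbate, differed in both directions. Of the 5 counted genes 2 were past 2-fold lower at low CO2, as were 11.1% of all counted genes. Past 2-fold higher was 1 of the 5, as were 6.07% of all. MDAR3, a cytosolic enzyme, was at 4.52 RPKM at low CO2 and 113 RPKM at normal CO2, 25.1-fold lower (21.1 to 30.1), and MDAR2 was 2.30-fold lower (2.19 to 2.41). MDAR6, of plastids and mitochondria, was at 67.6 RPKM at low CO2 and 16.8 RPKM at normal CO2, 4.02-fold higher (3.65 to 4.43). MDAR1 and MDAR4, the peroxisomal enzymes, lay within 2-fold, and the median of the 5 genes was -0.57.

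The TGA factors, which bind the as-1 elements of many GST promoters, and their partner SCL14 all lay within 2-fold (6 counted of 7, median -0.30), as did 82.9% of all counted genes. TGA3 had a ratio of 0.572 (0.534 to 0.612) and TGA4 of 1.60 (1.45 to 1.77), and TGA1 was not analysed here. Among 13 counted detoxification genes that xenobiotics induce together with GSTs, 3 were past 2-fold higher at low CO2 (6.07% of all counted genes were) and 0 past 2-fold lower (11.1% of all). Their median was -0.08. The higher ones were the glucosyltransferase gene UGT74E2, 6.55-fold higher (4.26 to 10.5), the cytochrome P450 gene CYP81D11, 13.4-fold higher (5.84 to 37.7) with 69 reads at low CO2 and 6 at normal CO2, and the efflux carrier gene DTX3, 3.07-fold higher (2.49 to 3.80). All 3 lay within 2-fold with a pseudocount of 5.

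**Figure D5:**
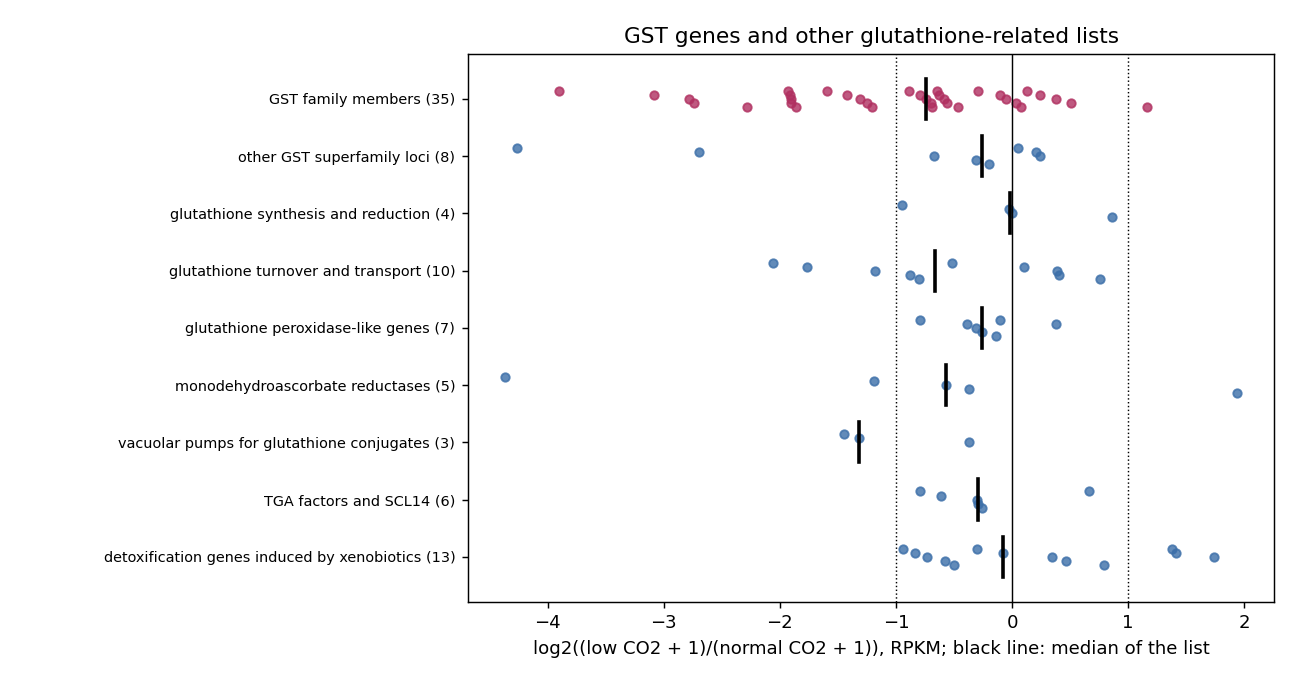
Log2 difference between low and normal CO2 for each counted GST member and for the genes of 8 other lists, with the median of each list as a black line and dotted lines at 2-fold. The GST members spread from -3.90 to 1.16 with a median of -0.74, while the lists of glutathione synthesis and of peroxidase-like genes lie wholly between -1 and 1.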

How the data were processed

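The authors deposited 1 table of RPKM values with 1 column per CO2 level, although the labels give 3 samples each. A column was taken as the authors' value of its CO2 level, without SD or n, and whether it pools libraries is unknown. FastQC, TopHat and Cufflinks are named, without versions, per the submitters' processing notes, and the genome build, annotation and use of strand are steps not given in the sources used here. Coding lengths of TAIR10.1 gave whole reads, as follows. The planned limma fit needed columns of single replicates, so no test was run.

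Whole reads were recovered as RPKM × coding length × depth, with coding lengths of the RefSeq annotation of TAIR10.1 less the 3 bases of the stop codon. Of 21010 genes above 0, 20247 (96.4%) came out whole at low and normal CO2 to within 0.0001 of a read. The intervals are exact Clopper-Pearson 95% intervals of the part of each gene's reads found at low CO2, scaled by the depths. On 1 kb, 3 reads were worth 0.137 RPKM at low CO2 and 0.118 RPKM at normal CO2. The recovery, size rule and intervals were checked on simulated data with counting error only, for genes whose whole reads had been recovered. That check does not cover spread between replicates or genes without whole reads.

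Differences used log2(RPKM + 1), a mean of at least 1 RPKM and a 2-fold rule. Named are members past 2-fold, those of at least 20 RPKM and those near the rule, and the rest more briefly, with, by rule, up to 3 genes of each of 8 other lists (62 entries, 60 in the table, where UGT73B5 and TGA1 were not analysed here). GSH2, GR1, ABCC1, MDAR1 and MDAR4 were named beyond that rule, after their values were seen. Members and lists were chosen with earlier results of these data known. Coding sequence identity is the share of identical columns in a global alignment of the longest coding sequences of TAIR10.1 (Biopython 1.88). Promoter and protein sequences were not used here. Calculations used Python 3.11.15, NumPy 2.4.6, pandas 2.3.3 and SciPy 1.17.1.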

Additional observations from a re-analysis of the deposited data

How the results depend on the processing

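The number of members at least 2-fold lower (15) was between 11 and 15 under the 7 alternatives run. It was 11 of 28 counted members with a mean of at least 5 RPKM (10.6% of all genes), 13 of 35 with a pseudocount of 5 (7.09% of all) and 15 of 35 with one of 0.1 (12.7% of all). GSTU1 alone made up the count of members at least 2-fold higher, which was 0 with a pseudocount of 5 and 0 when the whole counting interval had to lie beyond 2-fold. With that interval 14 members were lower, DHAR1 having none. The median of the counted members moved to -0.86 with a pseudocount of 0.1 and to -0.57 with one of 5, and stayed between -0.69 and -0.67 under the other filters and scalings. With the columns scaled to the same median the ratio of the summed level was 0.611 for phi, 0.509 for tau, 1.01 for lambda and 0.598 for the DHARs, so the lambda sum changed side of 1 there. After quantile normalization, which moved the median of all genes by 0.11, the ratio was 0.557 for phi, 0.506 for tau, 0.983 for lambda and 0.584 for the DHARs. Phi then lay below the DHARs. No called gene changed direction. No paired analysis was possible because the columns carry no replicate numbers, and leaving out a replicate was not run for the same reason. Genes of few reads (GSTU3, GSTU11 and GSTL1 at low CO2) are limited by depth.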
